A study of Saccharomyces cerevisiae with 6 samples.

Results

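The expression of 10 genes for the synthesis, uptake and regulation of thiamine was examined in xylose-fermenting *Saccharomyces cerevisiae*. The genes were chosen by name, as *THI2*, *THI3*, *THI4*, *THI6*, *THI7*, *THI20*, *THI21*, *THI80*, *PHO3* and *PDC2*, and all 10 were found among the 6256 genes of the array. Strain YΔGP/XK/XI, which lacks the phosphatase gene *PHO13*, was set against its parent YΔG/XK/XI, with 3 replicates of each. Both strains descend from the haploid laboratory strain YPH499, a *MAT*a strain with the markers *ade2*, *his3*, *leu2*, *lys2*, *trp1* and *ura3*. Both also carry a *GRE3* deletion, the xylulokinase gene *XKS1* driven by the *TDH3* promoter and several integrated copies of the *Orpinomyces* xylose isomerase gene *xylA* under the *PGK1* promoter. In YΔGP/XK/XI *PHO13* was disrupted with the *KanMX* marker, and the number of clones tested is not given in the sources used here. RNA was taken at 9 h from cultures in rich YP medium with 50 g/L xylose and limited oxygen.

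Thiamine (vitamin B1) is built by yeast from a pyrimidine part and a thiazole part, which are made on separate branches and then joined. It can also be taken up from the medium. Its diphosphate is the working cofactor of transketolase in the pentose phosphate pathway and of pyruvate decarboxylase in ethanol formation, both of which xylose carbon passes through. In *S. cerevisiae* the genes for its synthesis and uptake are repressed when thiamine is plentiful, through the regulators Thi2, Thi3 and Pdc2. Thiamine and its phosphates were not analysed here.

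Each gene had 1 probe, printed in 7 spots, and its level is given as a normalized log2 signal, in which 0 is the 75th percentile of the probes on that array. That percentile, a measure of brightness, lay between 3767 and 7103 intensity units on the YΔGP/XK/XI arrays and between 4625 and 7603 units on the YΔG/XK/XI arrays. *PHO13* was well above background on 0 of 3 YΔGP/XK/XI arrays and on 3 of 3 YΔG/XK/XI arrays, where it was at least 82.3-fold brighter (at least 24.3-fold with the normexp background correction), while *GRE3* was at background on all 6. *XKS1* was well above background on all 6 arrays, and its signal was lower in YΔGP/XK/XI, at 0.732-fold, without overlap between the strains. The *MAT*a markers *MFA1*, *MFA2*, *STE2* and *BAR1* were well above background on all 6 arrays. *MFA1*, *MFA2* and *BAR1* were higher in YΔGP/XK/XI, at 1.25-fold, 1.4-fold and 1.24-fold, without overlap between the strains. *STE2*, at 0.949-fold, overlapped. Of the *MAT*α markers, *MF(ALPHA)1* and *MF(ALPHA)2* each reached that level on 1 array, of YΔGP/XK/XI, and *STE3* on all 6. All 10 thiamine genes were well above background on every array. Because RNA was taken from whole cultures, fewer cells expressing a gene and less RNA per cell cannot be told apart. The precision is limited by the 3 arrays per strain. The replicates are labelled only as runs, and p-values set the difference between the strains against the spread between these samples. As the number of clones is not given, whether that spread covers differences between clones is not known.

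Of the 10 thiamine genes, 4 were called as different between YΔGP/XK/XI and YΔG/XK/XI, and the others were not called. *PHO3*, *THI80* and *PDC2* were higher in YΔGP/XK/XI, by 3.18-fold, 1.52-fold and 1.30-fold, and *THI21* was lower. The 4 are a thiamine-repressible acid phosphatase, the kinase that makes thiamine diphosphate, a transcriptional activator and a kinase of the pyrimidine branch. *THI2*, *THI3*, *THI4*, *THI6*, *THI7* and *THI20* did not pass the test. Calls required an adjusted p below 0.05 in limma, a linear model with moderated variances, after Benjamini-Hochberg adjustment over all genes. Of all 6256 genes 29.6% were called, 16.6% higher and 13% lower in YΔGP/XK/XI, so that 4 of 10 is near the share of the array. The median log2 fold change was 0.11 over the 10 genes and 0.01 over all genes. Signals of YΔGP/XK/XI and YΔG/XK/XI were fully separate in the 4 called genes, as they were in 46.6% of all genes. With the arrays scaled to their medians, 42.9% of all calls were higher in YΔGP/XK/XI, against 56.1% with the scaling used here, and the same 4 thiamine genes were called.

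**Figure D1:**
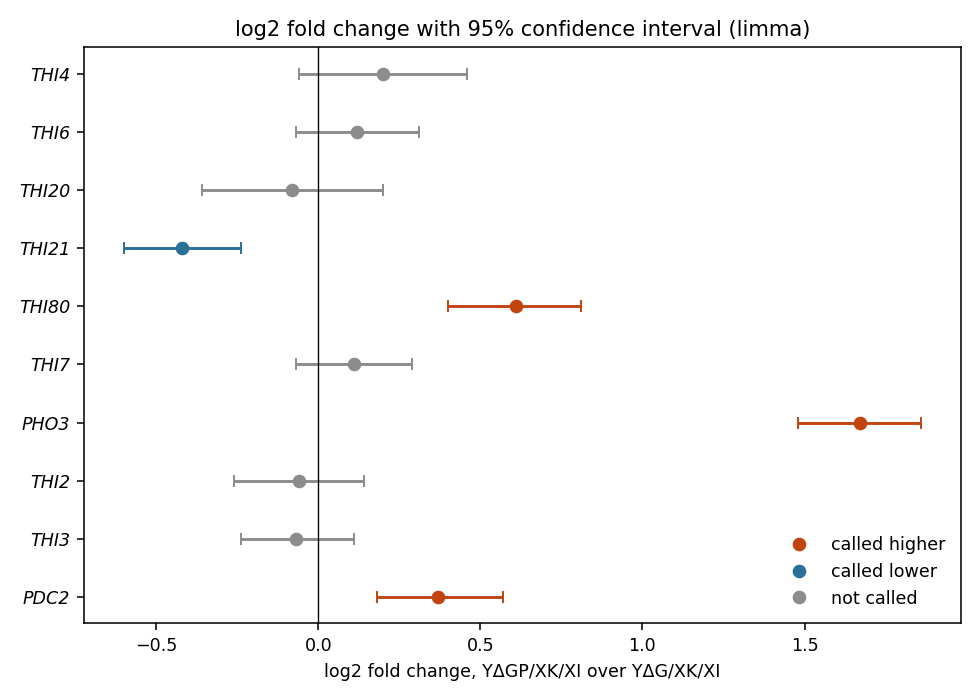
log2 fold change of the 10 thiamine genes, YΔGP/XK/XI over YΔG/XK/XI, with the 95% confidence interval of the limma fit (n = 3 arrays per strain). *PHO3* stands at 1.67, *THI80* at 0.61, *PDC2* at 0.37 and *THI21* at -0.42, and the intervals of the other 6 genes include 0.

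Uptake was represented by *PHO3* and *THI7*. *PHO3* (YBR092C) encodes a secreted acid phosphatase that frees thiamine from its phosphates outside the cell, so that it can be taken up. Its normalized log2 signal was -2.43, -2.31 and -2.22 in YΔGP/XK/XI, against -3.97, -4.07 and -3.94 in YΔG/XK/XI. The lowest array of the deletion strain lay well above the highest control array. Before scaling, its spots averaged 1026, 1433 and 809 intensity units in YΔGP/XK/XI and 487, 402 and 302 units in YΔG/XK/XI, so each deletion array was also brighter than each control array in raw units. In log2 fold change *PHO3* stood at 1.67 (standard error 0.08, 95% confidence interval 1.48 to 1.86, adjusted p = 8.72e-06, limma). Counted from the largest increase, *PHO3* stood at place 19 of the 6256 genes. The difference was 1.65 on the slide that held replicates 1 and 2 of both strains and 1.72 on the slide with replicate 3.

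*THI7* (YLR237W) encodes the high-affinity thiamine transporter of the plasma membrane. Its signal was 0.47, 0.57 and 0.37 in YΔGP/XK/XI and 0.36, 0.41 and 0.33 in YΔG/XK/XI. The arrays overlapped, with replicate 3 of the deletion strain below replicate 2 of the control. A log2 fold change of 0.11 (standard error 0.08, 95% confidence interval -0.07 to 0.29) did not pass the test (adjusted p = 0.320, limma), and the interval leaves room for an increase of up to 1.22-fold. Thus the phosphatase that acts before uptake was higher, while the transporter was not called.

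**Figure D2:**
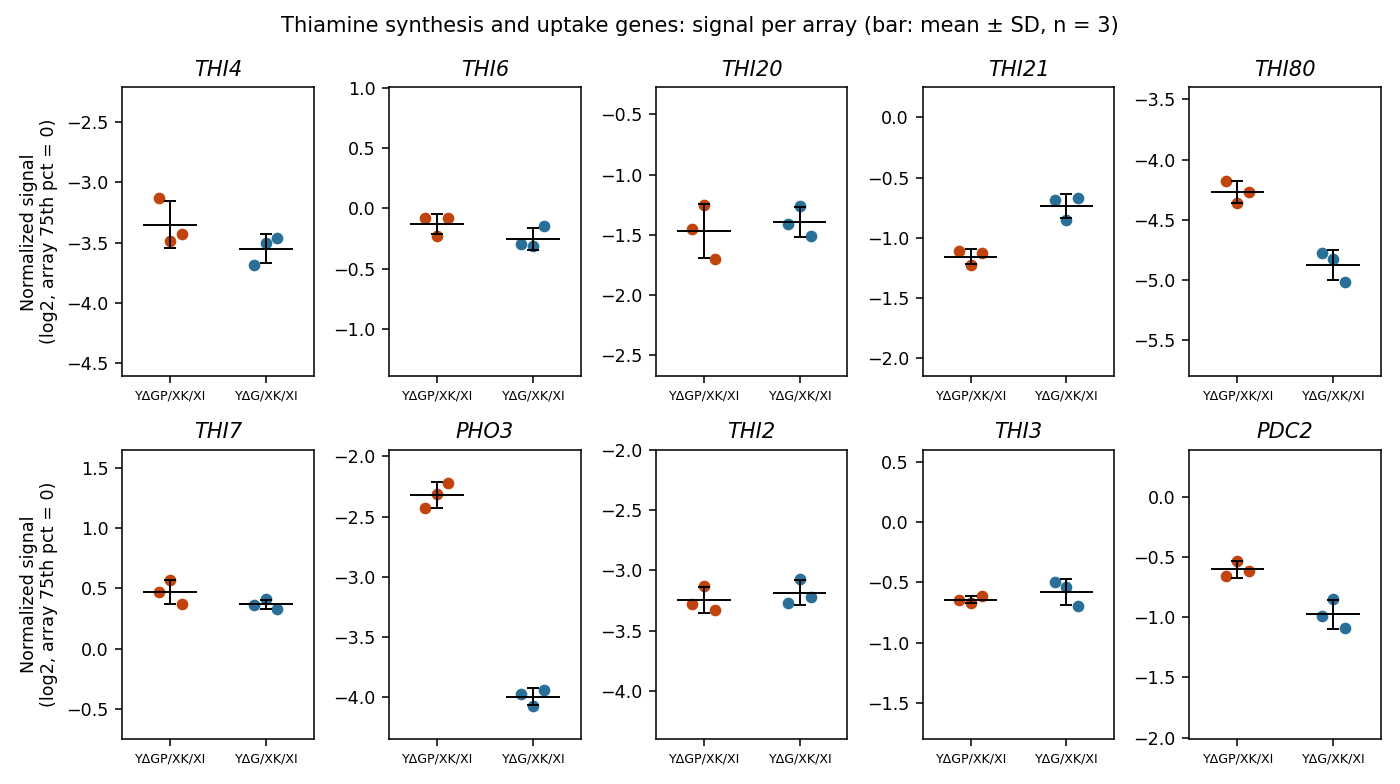
Normalized log2 signal of the 10 thiamine genes on each array, with YΔGP/XK/XI left and YΔG/XK/XI right (points, arrays; bars, mean ± SD, n = 3). Every panel spans the same range of log2 units; the groups are separate for *PHO3*, *THI80*, *PDC2* and *THI21* and overlap for the other 6 genes.

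*PHO3* has close relatives among the secreted acid phosphatases, and *PHO5* is its next neighbour on chromosome II. *PHO5* (YBR093C), the main phosphate-repressible enzyme, had signals of -2.53, -2.39 and -2.38 in YΔGP/XK/XI and -2.58, -2.69 and -2.48 in YΔG/XK/XI. These overlapped, and its difference of 0.15 in log2 fold change (95% confidence interval from -0.04) was not called (adjusted p = 0.212, limma). *PHO11* and *PHO12*, a pair of further phosphate-repressible enzymes, were called higher, *PHO11* by 0.30 in log2 fold change (adjusted p = 0.0122, limma) and *PHO12* by 0.35 (adjusted p = 0.00937). Without replicate 1 of YΔG/XK/XI the adjusted p of *PHO11* was 0.0523, and with quantile normalization that of *PHO12* was 0.0519. Relative to *PHO5* on the same array, *PHO3* stood at a log2 ratio of 0.11 ± 0.04 in YΔGP/XK/XI and -1.41 ± 0.04 in YΔG/XK/XI (SD, n = 3 each), a difference of 1.52. The difference was 1.36 relative to *PHO11* and 1.32 relative to *PHO12*. In these 3 pairs the strains did not overlap, and the exact permutation p was 0.1 (two-sided), the lowest that 3 arrays against 3 can give, or 0.133 after Benjamini-Hochberg adjustment over 8 pairs of related genes. Cross-hybridization between these related sequences was not tested.

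The last step, from thiamine to its diphosphate, belongs to *THI80* (YOR143C), thiamine pyrophosphokinase. Its signal was -4.18, -4.36 and -4.27 in YΔGP/XK/XI, against -4.78, -4.83 and -5.02 in YΔG/XK/XI. The strains did not overlap, and the log2 fold change was 0.61 (standard error 0.09, 95% confidence interval 0.40 to 0.81, adjusted p = 0.00172, limma). *THI80* was the dimmest of the 10 genes on every array, with 195 to 346 units in YΔGP/XK/XI and 143 to 277 units in YΔG/XK/XI, over a median local background of 21 to 24 units. In raw units the strains overlapped, since the brightness of the arrays differed. The difference was 0.54 within the first slide and 0.75 within the second.

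Before that step, the pyrimidine and thiazole parts are prepared and joined. *THI21* (YPL258C) and *THI20* (YOL055C) encode closely related kinases of the pyrimidine part, hydroxymethylpyrimidine, and Thi20 can also degrade thiamine. *THI21* had signals of -1.11, -1.23 and -1.13 in YΔGP/XK/XI and -0.69, -0.85 and -0.67 in YΔG/XK/XI. All 3 deletion arrays lay below the control arrays, and *THI21* fell by 0.42 on the log2 scale (standard error 0.08, 95% confidence interval -0.60 to -0.24, adjusted p = 0.00563, limma), so that it was 1.34-fold higher in YΔG/XK/XI. Within the slides its difference was -0.40 and -0.45. *THI20* varied more between replicates, with -1.45, -1.25 and -1.70 in YΔGP/XK/XI and -1.41, -1.26 and -1.51 in YΔG/XK/XI. In both strains replicate 2 was the highest and replicate 3 the lowest, and the log2 fold change of -0.08 (95% confidence interval -0.36 to 0.20) was not called (adjusted p = 0.665, limma).

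The exact permutation test used here cannot decide whether *THI21* changed differently from *THI20*, since 3 arrays against 3 give a p of 0.1 at the lowest. The log2 ratio of *THI21* to *THI20* was 0.34, 0.02 and 0.58 in YΔGP/XK/XI and 0.72, 0.41 and 0.84 in YΔG/XK/XI. The means were 0.31 ± 0.28 and 0.65 ± 0.22 (SD, n = 3 each), and the arrays overlapped (exact permutation p = 0.2, two-sided, and 0.2 after adjustment over the 8 pairs). Each YΔGP/XK/XI array lay below the YΔG/XK/XI array of the same replicate number, but the numbers were not taken as pairs. The paralog of both genes, *THI22* (YPR121W), went the other way from *THI21*, with -2.52, -2.72 and -2.58 in YΔGP/XK/XI and -2.95, -2.97 and -3.00 in YΔG/XK/XI. It was called higher, with a log2 fold change of 0.37 (adjusted p = 0.00898, limma). The log2 ratio of *THI21* to *THI22* was 1.45 ± 0.04 in YΔGP/XK/XI and 2.24 ± 0.10 in YΔG/XK/XI (SD, n = 3 each), without overlap (exact permutation p = 0.1, two-sided, the lowest this design allows).

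Neither *THI4* nor *THI6* was called. *THI4* (YGR144W) makes the thiazole part, and its protein gives up a sulfur atom of its own in doing so. Its signal was -3.13, -3.49 and -3.43 in YΔGP/XK/XI and -3.69, -3.50 and -3.46 in YΔG/XK/XI. Replicate 1 of YΔGP/XK/XI stood above the other arrays, whose ranges overlapped, and the log2 fold change was 0.20 (standard error 0.11, 95% confidence interval -0.06 to 0.46, adjusted p = 0.207, limma). Without that replicate it was 0.09. *THI6* (YPL214C) encodes the enzyme that joins the parts to thiamine phosphate. It had signals of -0.08, -0.23 and -0.08 in YΔGP/XK/XI and -0.30, -0.31 and -0.15 in YΔG/XK/XI. Only replicate 2 of YΔGP/XK/XI fell within the control range, and the log2 fold change of 0.12 (95% confidence interval -0.07 to 0.31) did not pass the test (adjusted p = 0.296, limma).

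Among the regulators, *PDC2* alone was called. *PDC2* (YDR081C) encodes an activator that is required both for thiamine genes and for pyruvate decarboxylase genes. Its signal was -0.66, -0.53 and -0.62 in YΔGP/XK/XI, against -0.99, -0.85 and -1.09 in YΔG/XK/XI. The deletion arrays lay above the control arrays, by 0.37 in log2 fold change (standard error 0.08, 95% confidence interval 0.18 to 0.57, adjusted p = 0.0119, limma). The call was the nearest to the threshold of the 4, with an adjusted p of 0.0491 when replicate 1 of YΔG/XK/XI was left out. Within the slides the difference was 0.33 and 0.46.

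*THI2* (YBR240C) encodes a zinc cluster activator, and *THI3* (YDL080C) a relative of pyruvate decarboxylase that binds thiamine diphosphate and acts as the sensor. *THI2* had signals of -3.28, -3.13 and -3.33 in YΔGP/XK/XI and -3.27, -3.07 and -3.22 in YΔG/XK/XI. *THI3* had -0.65, -0.67 and -0.61 in YΔGP/XK/XI and -0.50, -0.54 and -0.70 in YΔG/XK/XI. Both overlapped between the strains. Their log2 fold changes were -0.06 (95% confidence interval -0.26 to 0.14, adjusted p = 0.651, limma) and -0.07 (95% confidence interval -0.24 to 0.11, adjusted p = 0.557). The intervals reach decreases to 0.837-fold for *THI2* and 0.844-fold for *THI3*. For *THI3* the difference was -0.14 on the first slide and 0.09 on the second.

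Other genes of the pathway were read from lists of known members. The pyrimidine part is made by *THI5*, *THI11*, *THI12* and *THI13*, near-identical genes whose signals may be shared. Of these 4 genes 0 were called (limma, against 29.6% of all genes), and 0 had an unadjusted p below 0.05, against 2620 of all 6256 genes. Their log2 fold changes ran from -0.36, for *THI13*, to -0.04, and with normexp that of *THI13* was 0.06. *THI13* was dim, and on replicate 2 of YΔGP/XK/XI its probe was not well above background. *TPC1*, the mitochondrial carrier of thiamine diphosphate, had a log2 fold change of 0.27 (adjusted p = 0.0294, limma) and lost its call with median scaling (0.0610), with quantile normalization (0.146), and without any single array but replicate 2 of YΔGP/XK/XI. *THI72*, a homolog of *THI7*, had a log2 fold change of -0.12 (adjusted p = 0.336). The further homolog *NRT1*, a nicotinamide riboside transporter, was called lower at -0.37 (adjusted p = 0.00825). The log2 ratio of *THI7* to *NRT1* was 2.35 ± 0.07 in YΔGP/XK/XI and 1.87 ± 0.03 in YΔG/XK/XI (SD, n = 3 each), without overlap (exact permutation p = 0.1, two-sided, the lowest this design allows).

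*SNZ* and *SNO* genes, which form pyridoxal phosphate, the precursor of the pyrimidine part, were called in both directions, 2 of the 6 higher and 2 lower, which is 66.7% of the list against 29.6% of all genes. *SNZ2* and *SNZ3* lie next to *THI12* and *THI5* on the chromosome and are repressed by thiamine like them. Both were called higher, *SNZ2* by 0.49 in log2 fold change (adjusted p = 0.00222, limma) and *SNZ3* by 0.52 (adjusted p = 0.00229). The strains did not overlap in either, with *SNZ3* at -2.14, -2.08 and -2.25 in YΔGP/XK/XI and -2.69, -2.58 and -2.76 in YΔG/XK/XI. *SNZ1* and *SNO1* were called lower, at -0.47 (adjusted p = 0.00168) and -0.66 (adjusted p = 2.76e-04). *SNO2* and *SNO3* both stood at -0.07 and were not called. *SNZ2* and *SNZ3* are similar in sequence and may share signal.

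**Figure D3:**
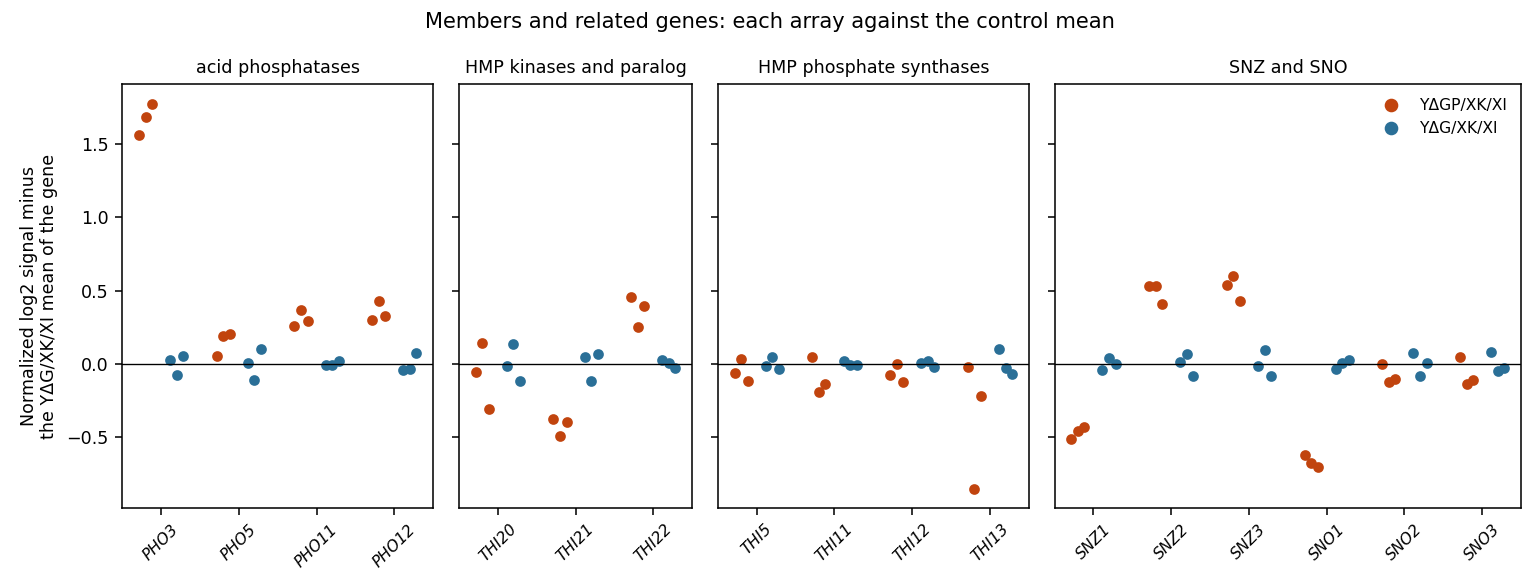
Normalized log2 signal of each array minus the YΔG/XK/XI mean of that gene (left points, YΔGP/XK/XI, and right points, YΔG/XK/XI). Panels hold acid phosphatases, hydroxymethylpyrimidine (HMP) kinases with their paralog *THI22*, HMP phosphate synthases and the *SNZ* and *SNO* genes. *PHO3* stands above its relatives at 1.67, *THI21* and *THI22* lie on opposite sides of 0, and *SNZ2* and *SNZ3* lie above 0 while *SNZ1* and *SNO1* lie below it.

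A list of 21 genes known to be repressed by thiamine, drawn from general knowledge of yeast, was also read. It does not hold *THI3*, *THI80* or *PDC2*, so its counts leave out *THI80* and *PDC2*, both called higher. Absence from the list does not mean that a gene is not repressed. Of these 21 genes, 4 were called higher and 1 lower in YΔGP/XK/XI. Those called higher were *PHO3*, *THI22*, *SNZ2* and *SNZ3*, and *THI21* was the one called lower. This is 23.8% of the list, against 29.6% of all genes. The median log2 fold change was -0.02, with 9 genes above 0 and 12 below. *PDC5*, a pyruvate decarboxylase gene that thiamine represses, had signals of -1.04, -1.04 and -0.94 in YΔGP/XK/XI and -0.96, -1.05 and -0.99 in YΔG/XK/XI. Its log2 fold change was 0.00 (adjusted p = 0.994, limma). The uncalled *THI73* and *THI74*, putative transporters, stood at 0.22 (adjusted p = 0.115, limma) for *THI73* and 0.20 (adjusted p = 0.0663) for *THI74*, and their arrays did not overlap between the strains. With the slide as a block *THI74* was called higher (adjusted p = 0.0381) and *THI73* was not (0.0549). With the replicate number as a block both were called (0.0420 for *THI74* and 0.0378 for *THI73*).

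Of 10 genes for enzymes that bind thiamine diphosphate, 2 were called higher and 3 lower, against 16.6% and 13% of all genes. Those higher were *TKL1* (transketolase) at 1.19 and *PDC1* (the main pyruvate decarboxylase) at 0.42 in log2 fold change. *TKL2*, the minor transketolase, had signals of -3.99, -4.18 and -3.84 in YΔGP/XK/XI and -3.75, -3.77 and -3.09 in YΔG/XK/XI. These did not overlap, and at a log2 fold change of -0.47 it was not called (adjusted p = 0.0870, limma), but was with the slide as a block (0.0113). *ARO10*, which encodes a decarboxylase of phenylpyruvate and related acids, had signals of -1.69, -1.93 and -1.62 in YΔGP/XK/XI and -0.77, -0.55 and -0.73 in YΔG/XK/XI. It fell by 1.06 on the log2 scale (standard error 0.10, adjusted p = 2.21e-04, limma). *PDC6* fell by 0.91 on the log2 scale. *ILV2* (acetolactate synthase) fell by 0.28 on the log2 scale (adjusted p = 0.0344), and lost its call without any single array except replicate 3 of YΔGP/XK/XI. *PDA1* and *PDB1* of pyruvate dehydrogenase and *KGD1* of oxoglutarate dehydrogenase had log2 fold changes of -0.07, -0.07 and 0.01 and were not called. The set thus held changes in both directions, with a median log2 fold change of -0.07.

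For the 4 called genes, the genes of most similar pattern were found by Pearson's r of the normalized log2 signal over the 6 arrays, among 5887 other genes well above background on all of them. *DBF2*, *ERG3* and *SSB1* were nearest to *PHO3* (r = 0.9993, 0.9989 and 0.9988). *FRS1*, *POL3* and *MAK3* were nearest to *THI80* (r = 0.9993, 0.9988 and 0.9973). The nearest to *PDC2* were *TIF11*, *ELO2* and *RBG2* (r = 0.9992, 0.9954 and 0.9944), and to *THI21* they were *ATG32*, *RPD3* and *YLR125W* (r = 0.9975, 0.9960 and 0.9953). None of these 12 genes is on the thiamine lists. The 6 points share the step between the strains, and 435 genes reached an r above 0.95 with *PHO3*, so that r describes the pattern and does not single out a gene.

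The 4 calls were also compared over 16 other ways of processing the arrays. Under each of them *PHO3*, *THI80*, *PDC2* and *THI21* were called and kept their direction, and 0 of the other 6 genes was called. The log2 fold change of *PHO3* ranged from 1.5 with the normexp background correction to 1.73 without replicate 1 of YΔGP/XK/XI. That of *THI80* ranged from 0.53 to 0.66, that of *PDC2* from 0.31 to 0.44 and that of *THI21* from -0.48 to -0.38.

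**Figure D4:**
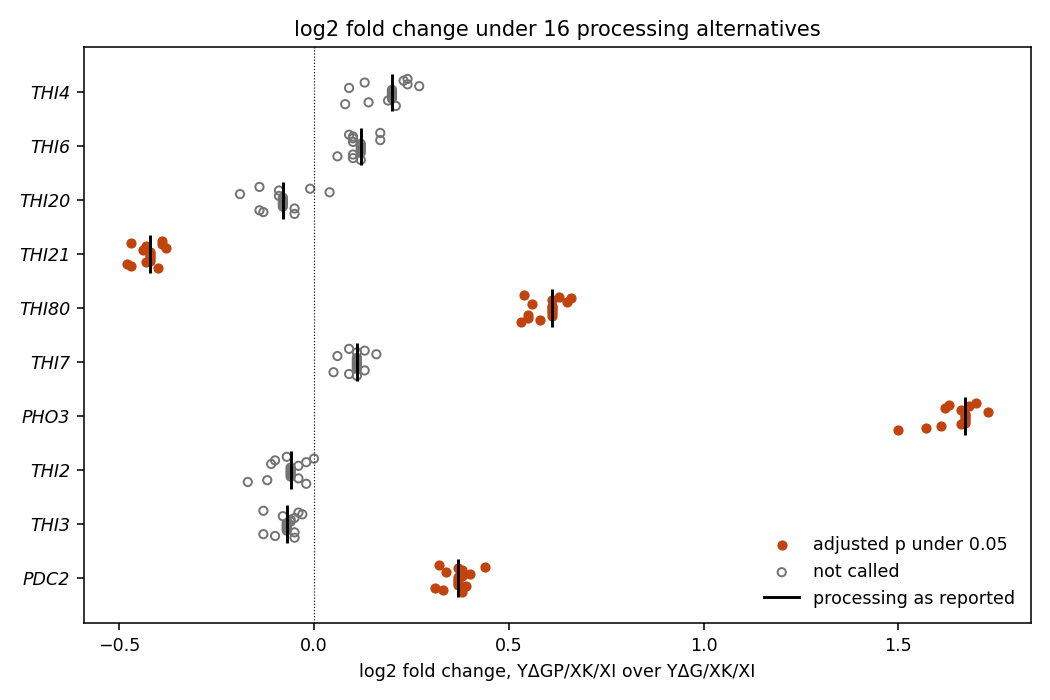
log2 fold change of the 10 thiamine genes, YΔGP/XK/XI over YΔG/XK/XI, under 16 processing alternatives (filled points, adjusted p below 0.05; open points, not called; black lines, the values reported here). Points of *PHO3*, *THI80*, *PDC2* and *THI21* are all filled and stay on 1 side of 0, and those of the other 6 genes are all open.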

How the data were processed

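Single-colour signals of 6 Agilent yeast arrays, 3 for YΔGP/XK/XI and 3 for YΔG/XK/XI, were used. The authors deposited spot intensity values from Agilent Feature Extraction 10.1.1.1, with background subtracted and no scaling between arrays. A table of processed log2 values, also deposited by the authors, correlated with the scaled and probe-centred log2 intensities at 0.99998 or more on each array. Control spots were left out, as were outlier spots, of which there were 304 to 466 per array. Each probe took the mean log2 intensity of its remaining spots, less the 75th percentile over probes. Strains were compared with limma 3.58.1 (R 4.3.3) over 6256 genes. A probe was well above background where at least 4 of 7 spots carried that mark. Bounds set the YΔG/XK/XI mean against, on each YΔGP/XK/XI array, the higher of the probe's own signal and the lowest signal well above background. Confidence intervals are at 95%. The fit was tested on simulated data.

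The 10 genes and the lists, from general knowledge of yeast, were chosen with earlier results of these data known. The genes named are those 10, the listed genes and, for each called gene, the 3 of highest r and its chromosomal neighbours, these last chosen after their values were seen. Names came from the R64 RefSeq table (5756 matched), which also gave gene order; the design build of the probes is not given in the sources used here. Alternatives were normexp (offset 50, on median signals), quantile or median scaling, a filter on dim probes, the spot median, outlier spots kept, an intensity trend, replicate or slide as a block, the log2 table, unmoderated variances (counts only) and each array left out.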

Additional observations from a re-analysis of the deposited data

How the results depend on the processing

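The 4 calls among the 10 thiamine genes, 3 higher and 1 lower, stood under every alternative, including the fit with unmoderated variances. Over all genes the count of calls was 1854. It was 1203 with unmoderated variances and lay between 1174, without replicate 1 of YΔG/XK/XI, and 1673 when an array was left out. With the replicate block 2366 genes were called, and with the slide block 2282. The deviations of same-numbered arrays correlated at 0.0656, 0.301 and 0.415, and those of differently numbered arrays at -0.481 to 0.130. Replicates 2 and 3 of each strain were thus most like the same number in the other strain, as was replicate 1 of YΔG/XK/XI. Replicate 1 of YΔGP/XK/XI was most like replicate 2 of YΔG/XK/XI (0.130). For replicate 3 the number and the slide cannot be told apart, as replicate 3 of both strains was on a slide apart from the other arrays. The labels give only run numbers, and the fit reported here did not take them as pairs. The replicate block changed the call of 3 listed genes, *THI73* (adjusted p = 0.0378, limma), *THI74* (0.0420) and *TKL2* (0.0169). With the slide as a block *THI74* (0.0381) and *TKL2* (0.0113) were called, *THI74* also with normexp (0.0491) and *TKL2* with quantile normalization (0.0406). Some uncalled genes changed sign. With normexp these were *THI13* (0.06, against -0.36), *THI5* (0.00), *THI11* (0.05), *SNO2* (0.03), *SNO3* (0.08), *PDC5* (0.00) and *KGD1* (0.00). With quantile normalization they were *THI11* (0.01), *SNO3* (0.09) and *KGD1* (-0.03), with median scaling *KGD1* (-0.05), and with the spot median or the deposited table *PDC5* (0.00 in both). With an array left out the log2 fold change ranged from -0.11 to 0.00 for *THI2*, from -0.19 to 0.04 for *THI20*, from -0.10 to 0.05 for *PET18*, from -0.03 to 0.02 for *PDC5*, from -0.13 to 0.01 for *PDA1* and from -0.08 to 0.06 for *KGD1*. The bound for *PHO13* was 24.3-fold with normexp. With normexp the difference of *PHO3* relative to *PHO5* was 1.34. Low signal over background limits *THI13* and *PHO13*.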

Other observations

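The neighbours of the called genes on the chromosome were read after their values were seen. *TIM12*, on the other side of *PHO3* from *PHO5*, was called higher, with a log2 fold change of 0.53 (adjusted p = 0.00137, limma). *ELG1*, next to *THI80*, was called higher at 0.60 (adjusted p = 5.96e-04), and *LSC1*, on its other side, stood at 0.03 (adjusted p = 0.792). Beside *PDC2*, *STN1* was called lower at -0.41 (adjusted p = 0.00642) and *VPS41* stood at 0.11 (adjusted p = 0.526). *APM1*, next to *THI21*, was called lower at -0.33 (adjusted p = 0.0293), and *YPL257W*, on its other side, stood at -0.10 (adjusted p = 0.547).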
